A study of Mus musculus with 16 samples.

Results

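The let-7 family, with its close relative miR-98, was followed across sciatic nerves that lack or keep the enzyme Dicer in Schwann cells. Members were all names of the mouse miRNA array that carry a mature let-7 strand or miR-98, namely let-7a, let-7b, let-7c, let-7d, let-7e, let-7f, let-7g, let-7i and miR-98. This gave 9 of the 650 names on the array and 18 of its 1857 probes, 2 for each member (10 spots per probe). All 9 members were detected on each of the 16 arrays, and all 18 probes were among the 681 probes of 281 expressed miRNAs that were tested.

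The let-7 miRNAs are among the most conserved small RNAs of animals and are known for rising as cells leave the dividing, undifferentiated state. Like most miRNAs they are cut by Drosha and then by Dicer into a mature strand, which guides the silencing complex to messenger RNAs that pair with its seed, bases 2 to 8. In many tissues the RNA-binding protein Lin28 holds back the last cutting steps of let-7 precursors. Known let-7 targets include Hmga2 and Ras genes, and in Schwann cells let-7 has been tied to the myelination programme.

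The mature sequences are shown because they set what the array can tell apart. They were taken from RefSeq (GRCm38.p6), which held all 9 members, and the capitals mark the seed.

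mmu-let-7a: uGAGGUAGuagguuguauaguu
mmu-let-7b: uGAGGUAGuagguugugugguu
mmu-let-7c: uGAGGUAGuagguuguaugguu
mmu-let-7d: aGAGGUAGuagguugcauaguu
mmu-let-7e: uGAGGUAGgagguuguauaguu
mmu-let-7f: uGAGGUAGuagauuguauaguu
mmu-let-7g: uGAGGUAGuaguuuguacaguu
mmu-let-7i: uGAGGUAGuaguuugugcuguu
mmu-miR-98: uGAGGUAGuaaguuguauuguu

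The 9 seeds were identical, and 14 of the 22 positions were the same in all members. Counted from the 5′ end and written against let-7a, let-7c differed by A19G alone, let-7e by U9G alone and let-7f by G12A alone. let-7b carried A17G and A19G, let-7d U1A and U16C, let-7g G12U and U18C, and miR-98 G11A and A19U. let-7i was the most distant from let-7a, with G12U, A17G, U18C and A19U. Any pair of members differed at 1 to 6 positions. Probes of members that differ at a single base may capture some of each other's RNA, and this was not tested. The same seed occurred in 2 other mature names of the RefSeq table, let-7k and miR-1961, and neither was on this array.

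Several members share a stretch of chromosome. On the minus strand of chromosome 13, let-7a (chr13:48538239-48538260), let-7f (chr13:48537889-48537910) and let-7d (chr13:48536078-48536099) lay within a short cluster, with 328 bases between let-7a and let-7f and 1789 between let-7f and let-7d. On the plus strand of chromosome 15, let-7c (chr15:85706616-85706637) and let-7b (chr15:85707325-85707346) were 687 bases apart. A further copy of let-7f (chrX:151912353-151912374) lay 854 bases from miR-98 (chrX:151913229-151913250), both on the plus strand. A further copy of let-7c (chr16:77599672-77599693) and let-7e (chr17:17830366-17830387) stood on the plus strand, let-7g (chr9:106178846-106178867) on the plus strand and let-7i (chr10:122985698-122985719) on the minus strand. A further let-7a gene, Mirlet7a-2, lies beside those of miR-100 and miR-125b, and the position of its mature strand is not given here. let-7e is encoded beside miR-99b and miR-125a, and the chromosome 16 copy of let-7c beside miR-99a.

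Whole sciatic nerves came from mutants (Dicer1 fl/fl, Dhh-Cre positive) and from controls (Dicer1 wt/fl, Dhh-Cre positive) on day 17 of gestation (E17) and on day 4 after birth (p4), with 4 mice in each of the 4 groups and 1 array for each mouse. By the methods each group held both sexes, with more males among the p4 controls than in any other group. Sex was not part of any fit. By the methods the floxed Dicer1 allele came from the strain Dicer1tm1Bdh/J, which was crossed to Dhh-Cre mice and bred back. All mice carried Dhh-Cre and had at least 1 floxed Dicer1 allele, so the controls had a single intact copy. Cre under the desert hedgehog promoter acts in Schwann cells from their precursor stage, and the authors expected Dicer loss in this cell type alone. Whether fibroblasts, blood vessels, immune cells and the axons of the nerve all kept Dicer was not tested. Dicer mRNA is not measured by a miRNA array, so the deletion could not be checked here. The paper found less Dicer mRNA in mutant nerves at both ages by quantitative RT-PCR, and the recombined allele by PCR. In a bulk sample such as this, fewer Schwann cells and less RNA per Schwann cell cannot be told apart.

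Of 3 miRNAs listed as markers of Schwann cells and myelinating glia (miR-338-3p, miR-138 and miR-219), miR-219 was detected in no group. Their summed signal was 2914 to 3887 in p4 controls and 122 to 261 in p4 mutants, against 312 to 683 in E17 controls and 290 to 395 in E17 mutants. Erythroid markers (miR-451, miR-144 and miR-486) summed to 788 to 3283 in E17 controls and 2103 to 4787 in E17 mutants. Fibroblast and smooth muscle markers ranged from 1781 to 3368 in controls and from 2941 to 3540 in mutants at E17, and from 4139 to 5658 and from 4020 to 7293 at p4. Endothelial markers were at 348 to 613 and 445 to 569 at E17 and at 1138 to 2381 and 927 to 1512 at p4, in the same order, and leukocyte markers at 86.2 to 174 and 136 to 185, then 219 to 331 and 268 to 406. Neuron markers were at 57.5 to 147 in controls and 63.1 to 94.7 in mutants at E17, and at 148 to 165 in controls and 63.0 to 92.9 in mutants at p4, where the genotypes did not overlap. The hepatocyte marker miR-122 was at 57.3 to 306 in controls and 15.5 to 52.0 in mutants at E17, again without overlap, and at 0 to 970 and 36.6 to 67.9 at p4. Skeletal muscle markers overlapped between the genotypes at both ages and reached at most 988. All these marker sums are in scanner units without normalization. The signal of all names was 122860 to 154076 in p4 controls against 56841 to 83630 in p4 mutants. At E17 it was 36495 to 60374 in controls and 39097 to 50827 in mutants. Marker sums of the genotypes at p4 therefore do not compare as shares of the signal, whether they overlap or not. The part of these cells in the differences of the family was not tested. All 16 arrays had 197 to 260 names detected. Since 1 slide held the E17 arrays and another the p4 arrays, age cannot be told apart from slide, but each slide held both genotypes. The third p4 array of each genotype had the fewest names detected at that age in its genotype, 228 in controls and 225 in mutants, and several members stood low there after normalization.

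The 9 members together took up a large share of all the fluorescence on the arrays. Their summed signal before any normalization was 10847 to 14754 in controls and 7755 to 9885 in mutants at E17, and 43606 to 53251 in controls and 15923 to 26969 in mutants at p4. As a share of the signal of all names this was 27.5% ± 3.0 in controls and 19.9% ± 0.43 in mutants at E17, and 36.3% ± 1.8 in controls and 29.8% ± 1.9 in mutants at p4 (mean ± SD, n = 4 each). The mutants thus lay below their controls at both ages with no overlap, at 19.4% to 20.4% against 23.3% to 29.7% at E17 and at 28.0% to 32.2% against 34.6% to 38.7% at p4. The signal of all other names summed to 34726 ± 4555 in E17 mutants against 35999 ± 8468 in E17 controls, and to 48628 ± 6622 in p4 mutants against 85785 ± 10098 in p4 controls. These are shares of fluorescence and not of molecules, because each probe has its own brightness.

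**Figure D1:**
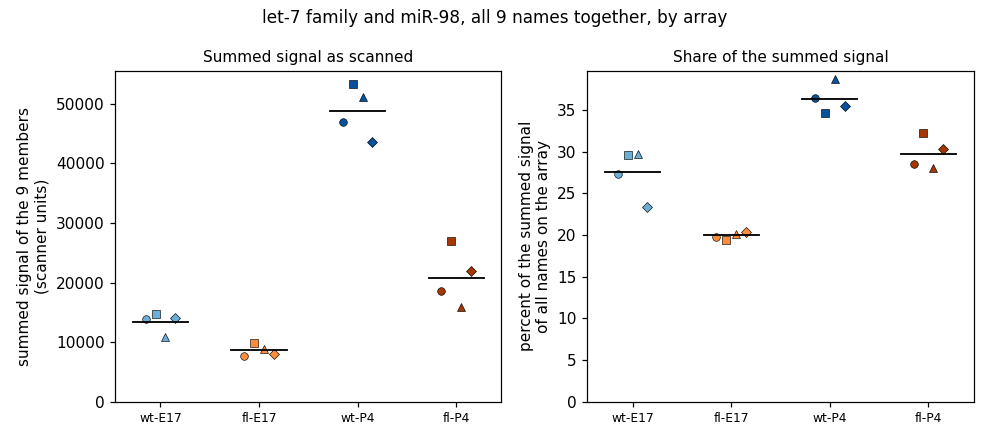
Summed signal of the 9 members by array, in scanner units without normalization (left) and as a percent of the summed signal of all names (right). Points are arrays, bars are means of 4, and at both ages every mutant array (fl) lies below every control array (wt) in the right panel, at 19.4% to 20.4% against 23.3% to 29.7% at E17 and 28.0% to 32.2% against 34.6% to 38.7% at p4.

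let-7a held the largest part of that signal, with 7.56% ± 0.81 of the total in controls and 5.67% ± 0.14 in mutants at E17, and 9.59% ± 0.69 and 7.77% ± 0.42 at p4. miR-98 held the smallest, with 0.162% ± 0.0084, 0.107% ± 0.0033, 0.191% ± 0.0047 and 0.126% ± 0.012 in the same order. At p4, 7 of the 9 members had a lower share in every mutant than in every control, where 22.4% of the 281 expressed miRNAs did, and let-7e had a higher one in every mutant, where 36.7% did. At E17 this held for 8 of the 9, where 15.7% of all did, with let-7e as the exception.

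For the tests, signals were put on a log2 scale and quantile normalized, a step that forces 1 common distribution on all arrays and so takes out any overall difference between them. A miRNA was called where 1 of its probes or more passed the limma test at an adjusted p of 0.05 with a log2 difference of 0.5 or larger. Values below are from the brighter of the 2 probes of a member unless stated.

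At E17, let-7b, let-7d and let-7i were lower in mutants. These 3 of the 9 members compare with 2.49% of the expressed miRNAs called lower, so they were 3 of 7 such miRNAs in all. The median difference of the members was -0.56, against 0.00 over all 281 miRNAs, and the members ranged from -0.78 to 0.00.

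let-7d, cut from the cluster on chromosome 13, had the largest difference on its brighter probe. The controls had log2 signals of 11.20, 11.40, 11.47 and 11.03 and the mutants of 10.47, 10.49, 10.58 and 10.47. The mutants were close to one another and all lay below the lowest control. The difference was -0.78 (SE 0.19, limma adjusted p = 0.0197), and the second probe gave -0.72 (SE 0.13, limma adjusted p = 0.00450).

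let-7b had log2 signals of 10.75, 11.02, 11.23 and 10.41 in controls and of 10.15, 10.11, 10.13 and 10.30 in mutants. The groups did not overlap, but the fourth control lay only just above the highest mutant. The difference of -0.68 (SE 0.21) had a limma adjusted p of 0.0532, while the second probe gave -0.89 (SE 0.13, limma adjusted p = 0.00150). For let-7i the controls were at 10.55, 10.79, 10.88 and 10.42 and the mutants at 10.29, 10.11, 9.98 and 10.31. Here too the call rested on the second probe, with -0.54 (SE 0.12, limma adjusted p = 0.0166) against -0.49 (SE 0.17, limma adjusted p = 0.0759) on the brighter one.

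**Figure D2:**
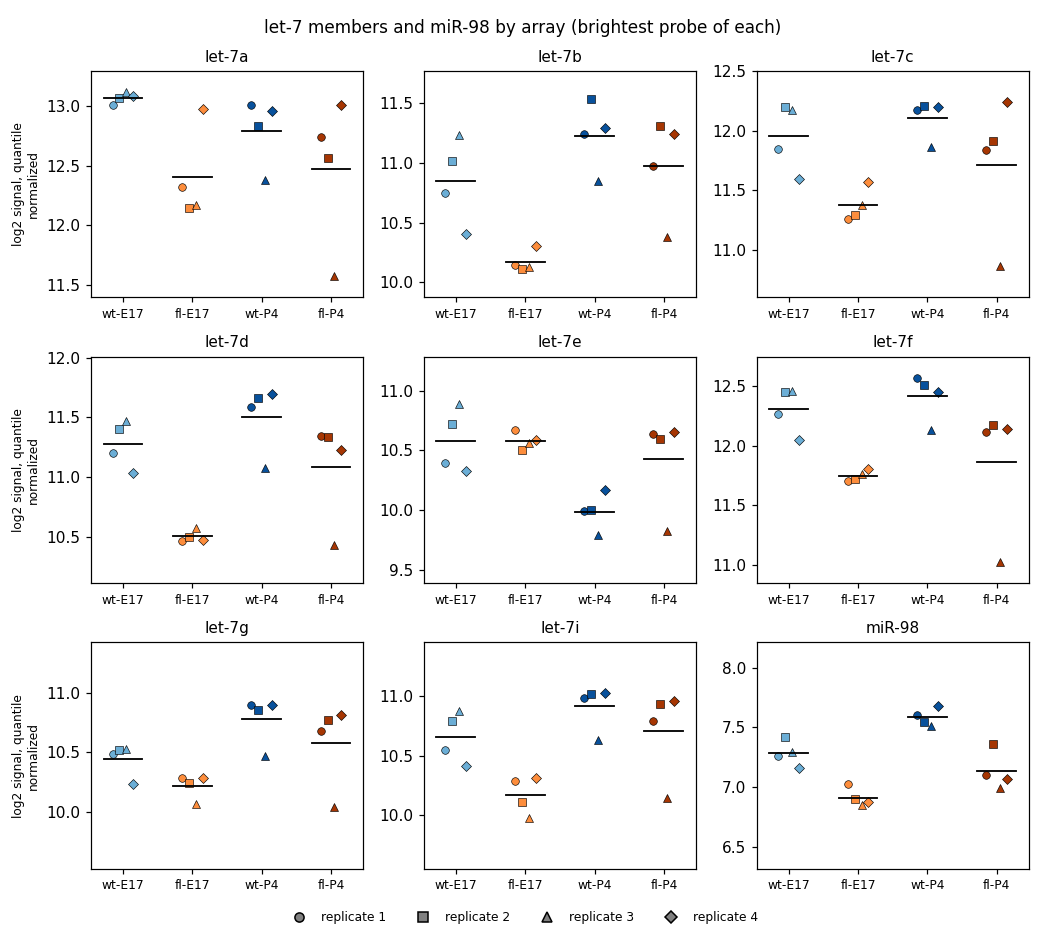
Quantile normalized log2 signal of each member on its brighter probe by array (points, with replicate numbers as symbols) and group mean (bars, n = 4); each panel spans the same log2 range. At E17 the mutants (fl) lie below the controls (wt) without overlap for let-7a, let-7b, let-7c, let-7d, let-7f, let-7i and miR-98, while let-7e overlaps, and at p4 the third array of each genotype stands low for several members.

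Brighter probes of 7 of the 9 members did not overlap between the genotypes at E17, with the mutants lower, where this was so for 13.9% of all expressed miRNAs. let-7a, the member with the most signal, had controls at 13.01, 13.07, 13.12 and 13.08 and mutants at 12.32, 12.14, 12.17 and 12.98, so that the fourth mutant lay close under the controls. Those not called were let-7a (-0.67, SE 0.26), let-7c (-0.58, SE 0.23), let-7f (-0.56, SE 0.21) and miR-98 (-0.37, SE 0.075). On the second probes let-7a (-0.39) and let-7f (-0.41) overlapped between the genotypes, and let-7g (-0.27) did not. miR-98 passed the test of the difference (limma adjusted p = 0.00789) and fell short only of the size limit. With no limit on size let-7b, let-7c, let-7d, let-7i and miR-98 were lower at E17, 5 of 9, where 8.54% of all expressed miRNAs were. On let-7g the difference was -0.22 (95% confidence interval -0.54 to 0.10), and on let-7e it was 0.00 (-0.37 to 0.37).

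let-7b and let-7d were called lower at E17 whichever of the 16 arrays was left out, and let-7i was called except without the third E17 control, which left 2 members. The count was 6 (let-7a, let-7b, let-7c, let-7d, let-7f and let-7i) without the third p4 mutant array, whose spread enters the common fit. Without any normalization let-7b, let-7d and let-7i were likewise the 3 called, where 1.78% of all expressed miRNAs were called lower.

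At p4, let-7f was the member called lower in mutants, 1 of 9, where 10.7% of the expressed miRNAs were called lower. The median difference of the members was -0.32, against 0.06 over all miRNAs. let-7f had log2 signals of 12.57, 12.51, 12.14 and 12.45 in controls and of 12.11, 12.17, 11.03 and 12.14 in mutants. The third mutant lay far below the other 3, and the second mutant lay above the lowest control. The difference was -0.55 (SE 0.21, limma adjusted p = 0.0429), and without the third mutant array it was -0.27 and not called. When each of the 16 arrays was left out in turn, let-7f was called in 5 of the fits, and without the third p4 control let-7a, let-7d and let-7f were called lower. Leaving out the first p4 mutant gave let-7a and let-7f, and leaving out the second gave let-7f and miR-98. The second let-7f probe gave -0.43 (SE 0.13, limma adjusted p = 0.0178), with no overlap between the groups.

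miR-98 was the member whose brighter probe did not overlap between the genotypes at p4, 1 of 9 against 24.2% of all expressed miRNAs. Its controls were at 7.61, 7.55, 7.52 and 7.68 and its mutants at 7.10, 7.36, 6.99 and 7.07. The difference was -0.46 (SE 0.075, limma adjusted p = 0.000207) and its second probe gave -0.47 (SE 0.053, limma adjusted p = 8.03e-06), both under the size limit. With no limit on size, 4 members were lower at p4 (let-7d, let-7f, let-7g and miR-98), where 30.2% of all expressed miRNAs were. For let-7a, let-7b, let-7c, let-7d, let-7g and let-7i the brighter probes gave differences from -0.42 to -0.21, with adjusted p values from 0.0872 to 0.358 in the limma fit. The second let-7d probe gave -0.44 (SE 0.13, limma adjusted p = 0.0149) and the second let-7g probe -0.42 (SE 0.097, limma adjusted p = 0.00273). On these probes the genotypes did not overlap, while on the second probes of let-7a, let-7b, let-7c and let-7i they did.

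let-7e went the other way at p4, with a difference of 0.44 (SE 0.17, limma adjusted p = 0.0503) that missed the threshold. Its controls were at 9.99, 9.999, 9.79 and 10.17 and its mutants at 10.64, 10.59, 9.82 and 10.65. Apart from the third mutant, the mutants lay above the highest control. Without that array let-7e was called higher, with a difference of 0.64 (limma adjusted p = 0.000624), as it also was without the fourth p4 control. The second let-7e probe gave 0.04 (95% confidence interval -0.17 to 0.25).

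Quantile normalization and the third p4 arrays bear on these values. On the third p4 mutant array the mean of the 9 members was 10.14 after normalization, against 10.91 to 11.04 on the other 3, and before it was 10.55 against 10.80 to 11.36. On the third p4 control array the mean was 10.74 after normalization, the lowest of its group, and 12.14 before, between the other controls at 11.96 to 12.20. The part of the normalization in these low values was not tested.

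**Figure D3:**
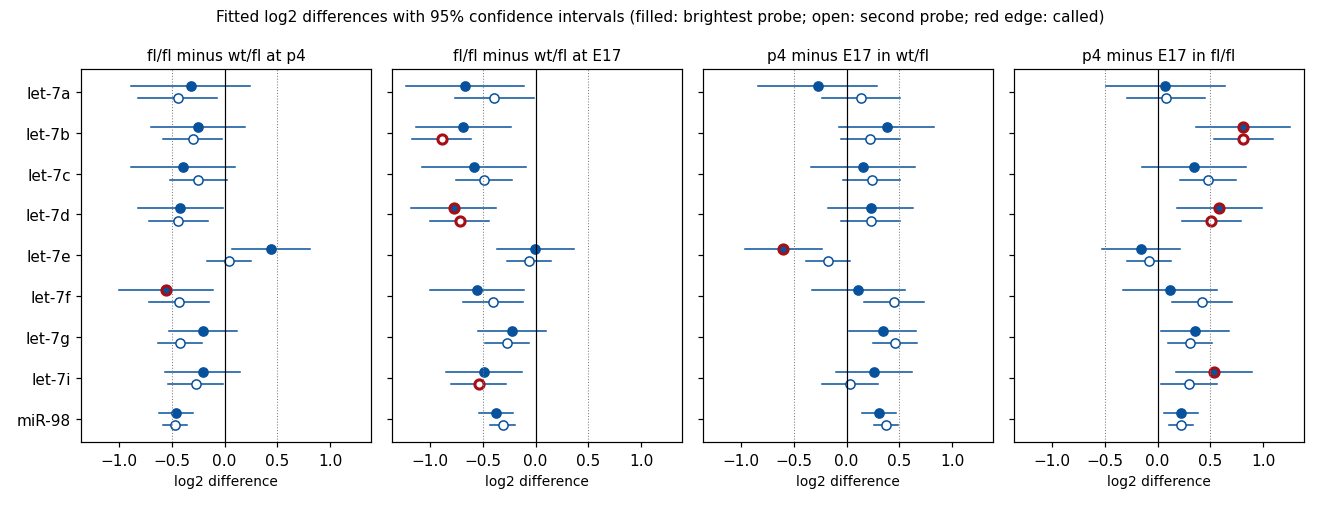
Log2 differences of each member between genotypes at each age and between ages in each genotype, with 95% confidence intervals from the fit (filled points for the brighter probe, open points for the second, red edges for calls; dotted lines at the size limit of 0.5). All members but let-7e lie below 0 in both genotype panels on both probes, while let-7e lies at 0.44 and 0.04 at p4 and at 0.00 and -0.06 at E17.

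The p4 differences were larger without normalization than after it. As scanned, all 9 members were called lower in p4 mutants, with a median of -1.19 where all miRNAs had -0.19, and 31.7% of all miRNAs were called lower. let-7e then was at -0.65 (SE 0.17, limma adjusted p = 0.00163) in place of 0.44, so that its direction at p4 turned. Relative to the summed signal of the other miRNAs, a scaling chosen after the values were seen, 4 members (let-7a, let-7b, let-7d and let-7f) were called lower at p4, where 9.96% of all were, although that scaling moved the median of all miRNAs to 0.63. The members other than let-7e lay below 0 in both genotype comparisons under each of these scalings and on the deposited intensities.

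With age, let-7e fell in controls and let-7b, let-7d and let-7i rose in mutants. In controls, 1 of 9 members was called lower at p4 than at E17, where 12.1% of the expressed miRNAs were, and none of the 9 was called higher, where 8.19% were. With no limit on size let-7f, let-7g and miR-98 were higher in controls at p4, where 31.7% of all miRNAs were, and let-7e was lower, where 23.1% were. In mutants, 3 of 9 were called higher, where 3.20% of the expressed miRNAs were, or 9 miRNAs in all. With no limit on size 7 of the 9 were higher in mutants, all but let-7a and let-7e, where 24.6% of all miRNAs were.

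let-7b had log2 signals of 10.15, 10.11, 10.13 and 10.30 in E17 mutants and of 10.98, 11.31, 10.38 and 11.24 in p4 mutants. Each p4 mutant lay above each E17 mutant, the third by little, and let-7b was the 1 member without overlap upwards here, where 12.5% of all miRNAs had none. The difference was 0.81 (SE 0.21, limma adjusted p = 0.0111), and 0.81 (SE 0.13, limma adjusted p = 0.000365) on the second probe. The same comparison in controls gave 0.38 (SE 0.21, limma adjusted p = 0.170). For let-7d the rise in mutants was 0.58 (SE 0.19, limma adjusted p = 0.0316) and for let-7i it was 0.54 (SE 0.17, limma adjusted p = 0.0280). The second let-7d probe gave 0.51 (SE 0.13, limma adjusted p = 0.0111). The second let-7i probe gave 0.30 (SE 0.12, limma adjusted p = 0.0870) and was not called. The third p4 mutant, at 10.43 for let-7d and 10.14 for let-7i, lay below all E17 mutants for let-7d and among them for let-7i. Without that array 6 members rose in mutants, namely let-7b, let-7c, let-7d, let-7f, let-7g and let-7i, while without any 1 of the other 3 p4 mutants let-7b alone did. let-7b was called whichever of the 16 arrays was left out.

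The size of the age difference rests on the scale. As scanned, all 9 members were higher at p4 in controls, with a median of 1.88 where all miRNAs had 0.57 and 57.3% were called higher, and 8 were higher in mutants, where 20.3% of all were. Relative to the summed signal of the other miRNAs, 7 members were called higher at p4 in controls and 7 in mutants (let-7a, let-7b, let-7c, let-7d, let-7f, let-7g and let-7i in both), where 7.83% of all miRNAs in controls and 5.69% in mutants were called higher and their medians were -0.71 and -0.37. let-7a was at -0.27 in controls after quantile normalization, and its second probe was at 0.14. On the brighter probe let-7a was above 0 as scanned, relative to the 75th percentile, relative to the other miRNAs and on the deposited intensities. miR-98 in mutants was at 0.22 after quantile normalization. It lay below 0 relative to the 75th percentile of each array (-0.01) or to the other miRNAs (-0.09). In shares of the summed signal, 8 of the 9 members were higher in every p4 control than in every E17 control, where 18.5% of all were, and let-7e was lower, where 40.9% were. In mutants 8 of the 9 were also higher in every p4 array, where 17.8% of all were.

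**Figure D4:**
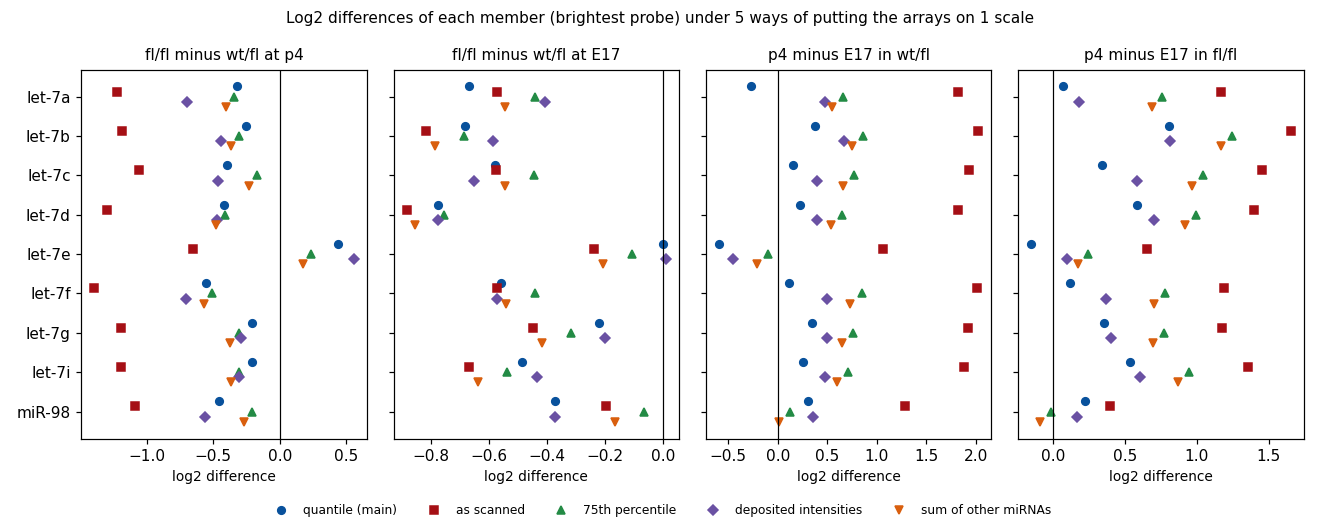
Log2 difference of each member on its brighter probe under 5 ways of putting the arrays on a common scale (colours and symbols), for the 4 comparisons of groups. At p4 the members other than let-7e lie below 0 under all 5 and let-7e lies above 0 under all but the unnormalized signal (-0.65), and in the age comparison of controls let-7a lies below 0 under quantile normalization (-0.27) and above 0 under the other 4.

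The genotype difference itself changed with age for let-7b. On its second probe the difference was -0.89 at E17 and -0.30 at p4, and the change was 0.59 (SE 0.19, limma adjusted p = 0.0488). It was 1 of 9 members, where 2.85% of the expressed miRNAs were called higher in this comparison. The call was kept in 3 of the 16 fits that left out 1 array, namely without the fourth E17 control, the second p4 control or the third p4 mutant, and in the last let-7d and let-7e were called as well. The brighter let-7b probe gave 0.43 (SE 0.29, limma adjusted p = 0.388), and without normalization let-7b was not called while 7 members were called with a more negative difference at p4 than at E17, where 29.9% of all were. For the other 8 members the change on the brighter probe ran from -0.08 to 0.44, with adjusted p values of at least 0.259 in the limma fit.

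let-7e stood apart from the rest of the family in the comparisons of both genotype and age. It differs from let-7a at U9G alone and is the member encoded beside miR-99b and miR-125a. Setting its brighter probe against the mean of the brighter probes of the other 8 members on the same array removes any scaling that all share. Because different probes are compared, the value has no meaning as a level and can be read only as it changes between groups. This comparison was chosen after the values were seen, and it carries no test. The second probes were not compared in this way.

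let-7e minus the mean of the others was -0.53, -0.39, -0.25 and -0.42 in E17 controls and 0.24, 0.13, 0.20 and 0.01 in E17 mutants. It was -1.27, -1.27, -1.08 and -1.10 in p4 controls and -0.31, -0.45, -0.36 and -0.44 in p4 mutants. Mutants lay above controls at both ages with no overlap, and p4 lay below E17 in both genotypes, again with no overlap in controls or in mutants. The third p4 arrays did not stand apart on this measure. As scanned, the means were -0.28 ± 0.12 in controls and 0.07 ± 0.053 in mutants at E17, and -1.05 ± 0.050 and -0.50 ± 0.090 at p4 (SD, n = 4 each). On both scales and on the brighter probes, let-7e was thus higher relative to the other members in mutants than in controls. It was lower relative to them at p4 than at E17. Between the genotypes at E17, let-7e itself was at 0.00 after quantile normalization, as was the median of all 281 miRNAs, while the other members were lower in mutants. miRNAs outside the family were not set against the same mean.

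**Figure D5:**
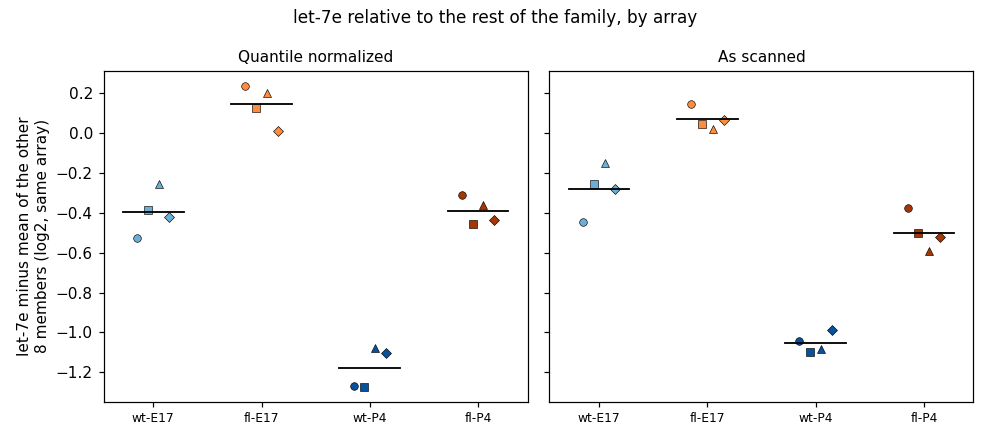
log2 signal of let-7e minus the mean of the other 8 members on the same array, each on its brighter probe, after quantile normalization (left) and as scanned (right). Points are arrays and bars are means of 4. In both panels the p4 controls are lowest, at -1.18 and -1.05, and the E17 mutants highest, at 0.14 and 0.07, while E17 controls and p4 mutants lie between them and change places (-0.40 and -0.39 on the left, -0.28 and -0.50 on the right).

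The fall of let-7e with age in controls was -0.60 (SE 0.17, limma adjusted p = 0.0128). E17 controls were at 10.39, 10.72, 10.89 and 10.32 and p4 controls at 9.99, 9.999, 9.79 and 10.17, with no overlap, and in this comparison let-7e and let-7a were the 2 members without overlap downwards, where 19.9% of all miRNAs had none. As scanned the difference was 1.06, and relative to the other miRNAs it was -0.21, so the direction turned without normalization. The second probe gave -0.18 (SE 0.097, limma adjusted p = 0.166), and the call on the brighter one was lost without the third E17 control (-0.49).

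miRNAs encoded beside let-7 genes were read from 9 names of the miR-99, miR-100 and miR-125 families, of which 6 were expressed. Their values are those after quantile normalization and are not given on the other scales. miR-125a-5p, the neighbour of let-7e, also fell with age on its brighter probe, by 0.87 (SE 0.26, limma adjusted p = 0.0163) in controls and by 0.80 (SE 0.26, limma adjusted p = 0.0366) in mutants. Its second probe gave -0.23 (SE 0.092, limma adjusted p = 0.0612) in controls and -0.33 (SE 0.092, limma adjusted p = 0.0165) in mutants, neither of them called. miR-99b, the other neighbour of let-7e, gave -0.09 (SE 0.069) in controls and -0.01 (SE 0.069) in mutants. miR-99a, the neighbour of let-7c on chromosome 16, rose with age in controls by 0.64 (SE 0.11, limma adjusted p = 0.000462), as did miR-100, by 0.87 (SE 0.092, limma adjusted p = 5.03e-06). miR-100 was also called lower in p4 mutants, at -0.55 (SE 0.092, limma adjusted p = 0.000234). None of the 6 was called between genotypes at E17, where 5 of the 6 lay between -0.21 and 0.20 on their brighter probes and miR-99a was at 0.34.

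The passenger strands of let-7 hairpins, which are mostly discarded when the mature strand is loaded, were near the limit of detection. Of 7 on the array, let-7b*, let-7d* and let-7f* were expressed, and let-7d* was detected most often, on 10 of 16 arrays. None of the 3 was called in any of the 5 comparisons. let-7d* gave -0.13 (95% confidence interval -0.24 to -0.03, limma adjusted p = 0.0940) at E17 and -0.08 at p4.

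The members moved together from array to array within a group. Deviations from the group means, over 16 arrays that share their normalization, correlated between members at a median r of 0.87 over 36 pairs, with a range from 0.27 (let-7a with miR-98) to 0.95. let-7e was no exception there, at 0.61 to 0.93. Pairs that differed at 1 base had a median r of 0.82 (4 pairs) and pairs that differed at 4 or more of 0.88 (11 pairs). The former were let-7a with let-7c (0.84), let-7e (0.73) and let-7f (0.81), and let-7b with let-7c (0.89). Since most of them share the brighter let-7a probe, these medians cannot tell sequence distance from the behaviour of that probe. On the same measure the 2 probes of 1 member correlated at 0.47 (let-7a), 0.48 (let-7c and let-7f), 0.53 (let-7d), 0.60 (let-7e), 0.66 (let-7g), 0.79 (miR-98), 0.91 (let-7b) and 0.96 (let-7i). The probes of let-7a, let-7c, let-7d and let-7f thus followed each other less closely within groups than most pairs of different members did on their brighter probes. With each member centred on its own mean, the members averaged -0.66 on the third p4 mutant array, against 0.12 to 0.24 on the rest of its group. On the third p4 control array the average was -0.05, against 0.32 to 0.35. The part of these arrays in the correlations was not tested, and pairs of other miRNAs were not set beside them.

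Outside the family, the expressed miRNAs whose brighter probes followed the mean profile of the 9 members most closely over the 16 arrays were miR-103 (r = 0.87), miR-676 (r = 0.84), miR-423-5p (r = 0.78), miR-24 (r = 0.78) and miR-99b (r = 0.76), out of 272. These values describe arrays that fall into 4 groups and share a normalization, and they carry no test. miR-103 had mean log2 signals of 9.54 in controls and 9.06 in mutants at E17, and of 9.54 and 9.18 at p4, so that it too was lower in mutants at both ages in the group means. Since miR-103 was picked for its likeness to a profile that is lower in mutants at both ages, this is no separate observation.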

How the data were processed

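Total RNA of sciatic nerves was hybridised by the authors to 1-colour Agilent mouse miRNA arrays, 1 per mouse. The authors deposited the intensity of every spot as scanned and extracted with Agilent Feature Extraction 10.5.1.1 (submitters' processing notes), and a table of quantile normalized intensities, which served as an alternative. The array values carry no genome build, and the positions of mature strands are those of RefSeq GRCm38.p6. The methods describe pairs of littermates at each age without saying which arrays pair. Groups followed the labels, and all 16 arrays were used.

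Median spot signals were put on a log2 scale, quantile normalized together (13000 spots that are not controls) and averaged per probe without outlier spots (160 of 2880 readings of members). No member spot was saturated. A miRNA was tested where 0.5 or more of the arrays in any group detected it. limma 3.58.1 (R 4.3.3) fitted a mean for each group over all arrays, with Benjamini-Hochberg adjustment over 681 probes of 281 miRNAs; the script was tested on simulated data. The number of arrays limits the precision. Every member was described by its brighter probe, and the text gives the second probe for some results only. The figure of log2 differences shows both probes. miRNAs beside let-7 genes, passenger strands, marker lists and the 5 most alike miRNAs were named by rule. Members and lists were chosen with earlier results of these data known. The limma test replaced the t-test of the methods. Other normalizations, filters, limits, tests, array weights and blocks were tried.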

Additional observations from a re-analysis of the deposited data

Results flagged for a closer look

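In a group of 4 arrays, a lowest or highest value was marked where its gap to the next exceeded the 95% limit of Dixon's ratio, which chance gives in about 1 in 20 groups. Among 9 members and the family share in 4 groups, 8 of 40 sets of values were marked. Of these, 4 were the third p4 control array, with log2 signals of 11.86 for let-7c (others 12.17 to 12.20), 11.07 for let-7d (others 11.59 to 11.69), 10.47 for let-7g (others 10.85 to 10.90) and 10.63 for let-7i (others 10.98 to 11.03). A further 3 were the third p4 mutant array, at 10.43 for let-7d (others 11.23 to 11.35), 9.82 for let-7e (others 10.59 to 10.65) and 11.03 for let-7f (others 12.11 to 12.17). The last was the fourth E17 control array, at 10.23 for let-7g (others 10.48 to 10.53).

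The genotype difference of let-7b differed between the ages by 0.59 on its second probe (limma adjusted p = 0.0488). On that probe the mutants lay below the controls in every pair of arrays at E17, with means of 8.96 and 9.85, and at p4 the means were 9.78 and 10.08.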

How the results depend on the processing

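Counts of members called are given in the order p4 genotype, E17 genotype, age in controls, age in mutants and change of the genotype difference, for which the reported counts were 1, 3, 1, 3 and 1. Without normalization they were 9 lower, 3 lower, 9 higher, 8 higher and 7 lower. The 75th percentile of probes detected on all arrays gave 2, 3, 7 (higher), 7 and 0, the processed signal 3, 4, 7 (higher), 7 and 0, and the deposited intensities 4 (3 lower), 5, 3 (higher), 5 and 2. Scaling to the other miRNAs, chosen after seeing the data, gave 4, 3, 7 (higher), 7 and 0. These scalings move the median of all miRNAs, in the p4 comparison from 0.06 to 0.70 under the 75th percentile. Without a size limit the counts were 4, 5, 4 (3 higher), 7 and 1, and with a limit of 1 they were 0 in each. Background correction by normexp gave 1, 3, 1, 3 and 0, and no filter gave 0, 3, 1, 2 and 0. The methods' t-test without adjustment gave 0, 6, 1, 3 and 1, and after Benjamini-Hochberg 0, 4, 1, 1 and 0. Only the arrays compared gave 0, 6, 1, 2 and 1. Array weights gave 1 higher (let-7e), 6, 1, 4 and 2. The mean over probes gave 0, 4, 0, 2 and 0. With age in mutants let-7i lost its call under no filter, only the arrays compared and the mean over probes. Leaving out both p4 arrays numbered 3, chosen after seeing the data, gave 1 higher (let-7e), 6, 3 (2 higher), 6 and 2. The row of the slide as a block, also added later, gave 1, 3, 1, 3 and 1. The slide as a block could not be fitted apart from age and gave no value.

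Leaving out 1 array at a time, the counts ranged from 0 to 3 at p4, from 2 to 6 at E17, from 0 to 3 for age in controls, from 1 to 6 for age in mutants and from 0 to 3 for the change. let-7f at p4 was called in 5 of these 16 fits, with values from -0.66 to -0.27, and the p4 call went to let-7e, higher, without the fourth p4 control or the third p4 mutant array. let-7e in controls ran from -0.68 to -0.49 and lost its call without the third E17 control.

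Single members turned direction without normalization: mmu-let-7e to -0.65 at p4, 1.06 with age in controls and 0.65 in mutants; mmu-let-7a to 1.82 with age in controls. For the change of the genotype difference 8 members were above 0, all but miR-98, and all 9 lay below it without normalization. Past the threshold on the brighter probe were then mmu-let-7a at -0.65, mmu-let-7f at -0.82, mmu-let-7g at -0.75 and mmu-miR-98 at -0.89. The brighter probes of let-7b, let-7c, let-7d, let-7e and let-7i lay between -0.52 and -0.37. mmu-let-7a with age in controls was also 0.66 under the 75th percentile, 0.58 on the processed signal and 0.54 relative to the other miRNAs. The cause was not tested.

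The methods name pairs of littermates, but no label ties them to replicate numbers, so the numbers were not taken as pairs. Deviations of same-numbered controls and mutants correlated at -0.52 to 0.09 at E17 and at -0.28 to 0.46 at p4 (3 of 4 pairs over 0.1), and no E17 control and 1 p4 control correlated best with its own number. With the replicate block the counts were 1, 5 (let-7a and let-7f added), 1, 3 and 1, and the cause of the higher E17 count was not tested.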
